A study of Saccharomyces cerevisiae with 6 samples.

Results

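The genes described here belong to the ribosome assembly line of baker's yeast and to RNA polymerase I. They are the genes whose symbol is UTP, NOP, NOC, RRP, ENP, NSA or RPA followed by a number, and 67 of the 5449 S. cerevisiae genes on the array met that rule. By their known roles, 32 act in the small-subunit processome, 17 in assembly of the large subunit, 7 encode subunits of RNA polymerase I and 7 encode subunits or partners of the RNA exosome. The other 4 either serve both subunits or fit none of these roles. Each gene was represented by 1 probe set, and all 67 were above background on all 6 arrays, background being the 95th percentile of 1746 probe sets that the array carries for another organism.

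The laboratory strain CEN.PK113-7D was grown in chemostats fed a minimal medium containing glucose at 10 g/L. The dilution rate was the critical one, above which respiration no longer takes up all of the sugar flux and ethanol begins to form. Control cells carried the empty plasmid pYX212, NOX cells carried pYX212-NOX, and AOX cells carried pYX212-AOX. NOX is known as a water-forming NADH oxidase that acts in the cytosol, and AOX as the alternative oxidase of mitochondria, which passes electrons to oxygen without pumping protons. All 3 strains thus shared the parent strain and the plasmid backbone, and 2 Affymetrix Yeast Genome 2.0 arrays were hybridised per strain. The labels do not say whether the arrays of a strain came from separate cultures, so the p-values below measure the spread between these arrays, which may be technical. The dilution rate of each culture is not given as a number, so the effect of a transgene and that of a difference in growth rate between strains cannot be told apart.

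Making ribosomes is among the costliest tasks of a growing yeast cell. RNA polymerase I transcribes the ribosomal DNA into a long precursor, the processome binds the precursor as it emerges and cuts out the RNA of the small subunit, and a second set of factors folds and trims the RNA of the large subunit. The genes of these factors form a regulon that is known to follow growth rate and nutrient supply.

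Levels are given as log2(intensity + 16) after quantile normalization, and a change is a difference of strain means on that scale, with limma's standard error (SE) and 2 arrays per strain. A change was called when its Benjamini-Hochberg adjusted p over 5498 probe sets was below 0.05. The median deposited intensity of the arrays lay between 511.2 and 543.1, and 94.8% to 97% of the S. cerevisiae probe sets were above background. The first NOX array stood apart from the others in its control probe sets. Its 18 hybridisation controls averaged 10.98 against 9.40 to 9.81 on the other 5 arrays, and its 17 probe sets for ribosomal RNA averaged 5.01 against 5.69 to 7.05. The part of this difference in the results below was not tested. Counts of calls in NOX against control and medians by role are given with and without this array. A level on these arrays is a share of the RNA hybridised, so that less of a transcript per cell and a change in the mix of cells cannot be told apart.

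The genes of ribosome assembly and RNA polymerase I moved little in any strain, as did most of the probe sets tested. Between the lowest and the highest of the 6 arrays a member spanned a median of 0.24 on the log2 scale, from 0.061 for RPA12 to 0.46 for UTP4, and none spanned over 1. Over all probe sets tested the median span was 0.24 too, but 128 of 5498 (2.33%) spanned over 1. The 95% interval of the change, which is not adjusted for the number of genes, lay within 1.5-fold in either direction for all 67 members in each of the 3 comparisons. The same held for 92.2%, 94% and 92% of all probe sets in NOX against control, AOX against control and AOX against NOX. The outermost bounds of the members' intervals were -0.54 for NOC2 in NOX against control and 0.51 for NOP56 in AOX against control, and 1.5-fold is 0.585 on this scale.

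**Figure D1:**
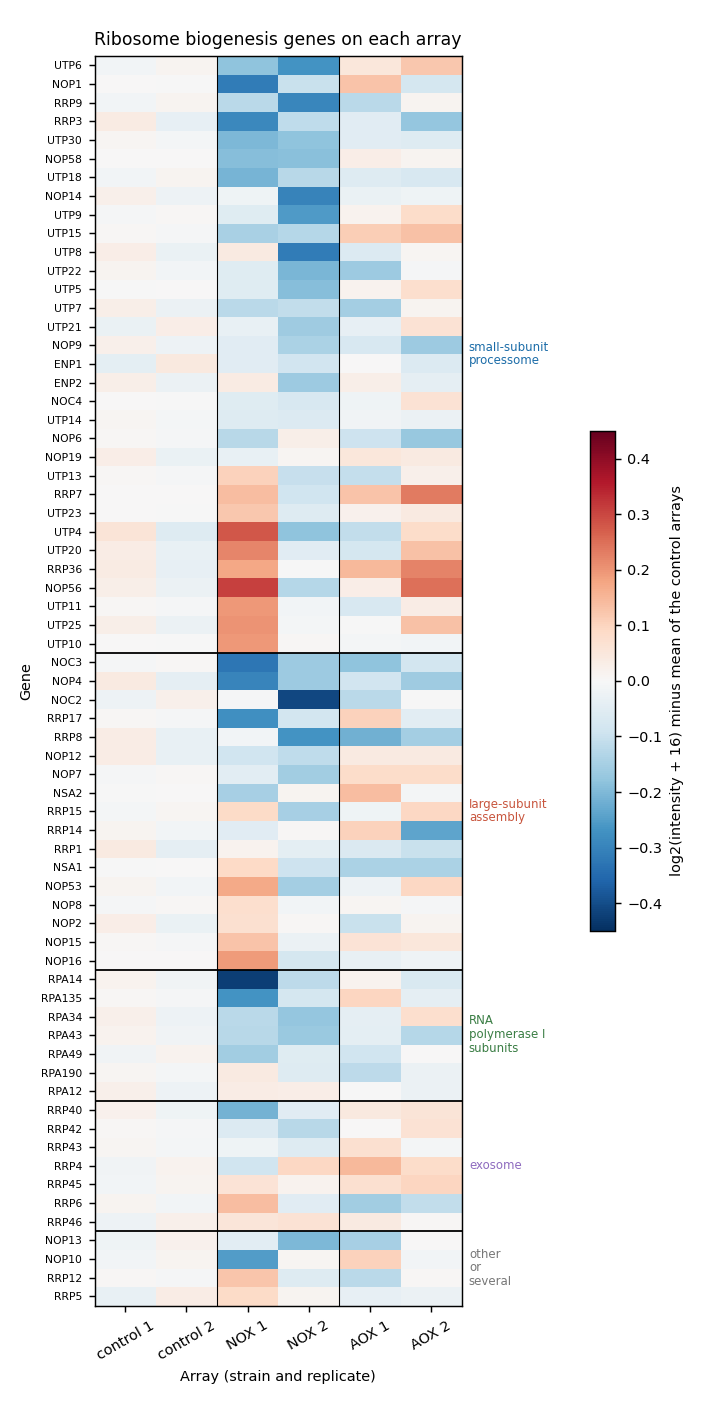
Level of each of the 67 genes on each array, as log2(intensity + 16) minus the mean of the 2 control arrays, with genes in rows grouped by role and arrays in columns (blue, below the control mean; red, above it). The second NOX array is mostly blue, with 55 of 67 genes below the control mean, while the first NOX array holds both blue and red genes.

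In NOX against control, no member was called by limma, where 3.71% of all probe sets were (204 of 5498). At an unadjusted p below 0.05 there were 11 members, beside 22.3% of all probe sets, and all 11 were lower in NOX, beside 9.93% of all probe sets that were lower at that threshold. The estimate was below 0 for 46 of 67 members (68.7%) and for 51.2% of all probe sets, and the members' median change was -0.069 beside -0.0037. For 31 members both NOX arrays lay below both control arrays, beside 28.4% of all probe sets. For 4 (UTP10, RPA12, RRP45 and RRP46) they lay above, beside 1486 of 5498 probe sets, and for 32 the arrays overlapped. The count of calls changed when a NOX array was left out, a fit in which the remaining NOX array is assumed to vary like the arrays of the other strains, whose replicates lay closer together. Without NOX replicate 1 it was 2, both lower (NOC2 and NOP14). Without NOX replicate 2 it was 12, of which 10 were lower and 2 higher (UTP10 and NOP16), and none of these was among the former 2. Over all probe sets the calls then numbered 263 and 1443.

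In AOX against control, limma again called no member, where 3.58% of all probe sets were called. A single gene, UTP15, had an unadjusted p below 0.05, beside 13.7% of all probe sets. The estimate was below 0 for 35 of 67 members, and their median change was -0.0094 beside -0.0024 over all probe sets. The 2 AOX arrays lay above both control arrays for 16 members, below them for 16, and overlapped with them for 35. Over all probe sets 58.2% did not overlap. No array left out in turn gave a call in this comparison.

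In AOX against NOX, 3 members were called, all higher in AOX, namely UTP6, UTP15 and NOP58. Over all probe sets 8.38% were called in either direction and 4% were called higher. At an unadjusted p below 0.05 there were 10 members, all higher in AOX, beside 22.8% of all probe sets and 11.5% that were higher. The estimate was above 0 for 45 of 67 members, and the median change was 0.060 beside 0.0089. Both AOX arrays lay above both NOX arrays for 23 members, beside 24.7% of all probe sets. They lay below them for 7 members, beside 1181 of 5498 probe sets. Leaving out either control array or either AOX array brought the 3 calls to 0. Without NOX replicate 1 the changes of UTP6, UTP15 and NOP58 were 0.36, 0.25 and 0.21. Without NOX replicate 2 they were 0.27, 0.27 and 0.21.

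**Figure D2:**
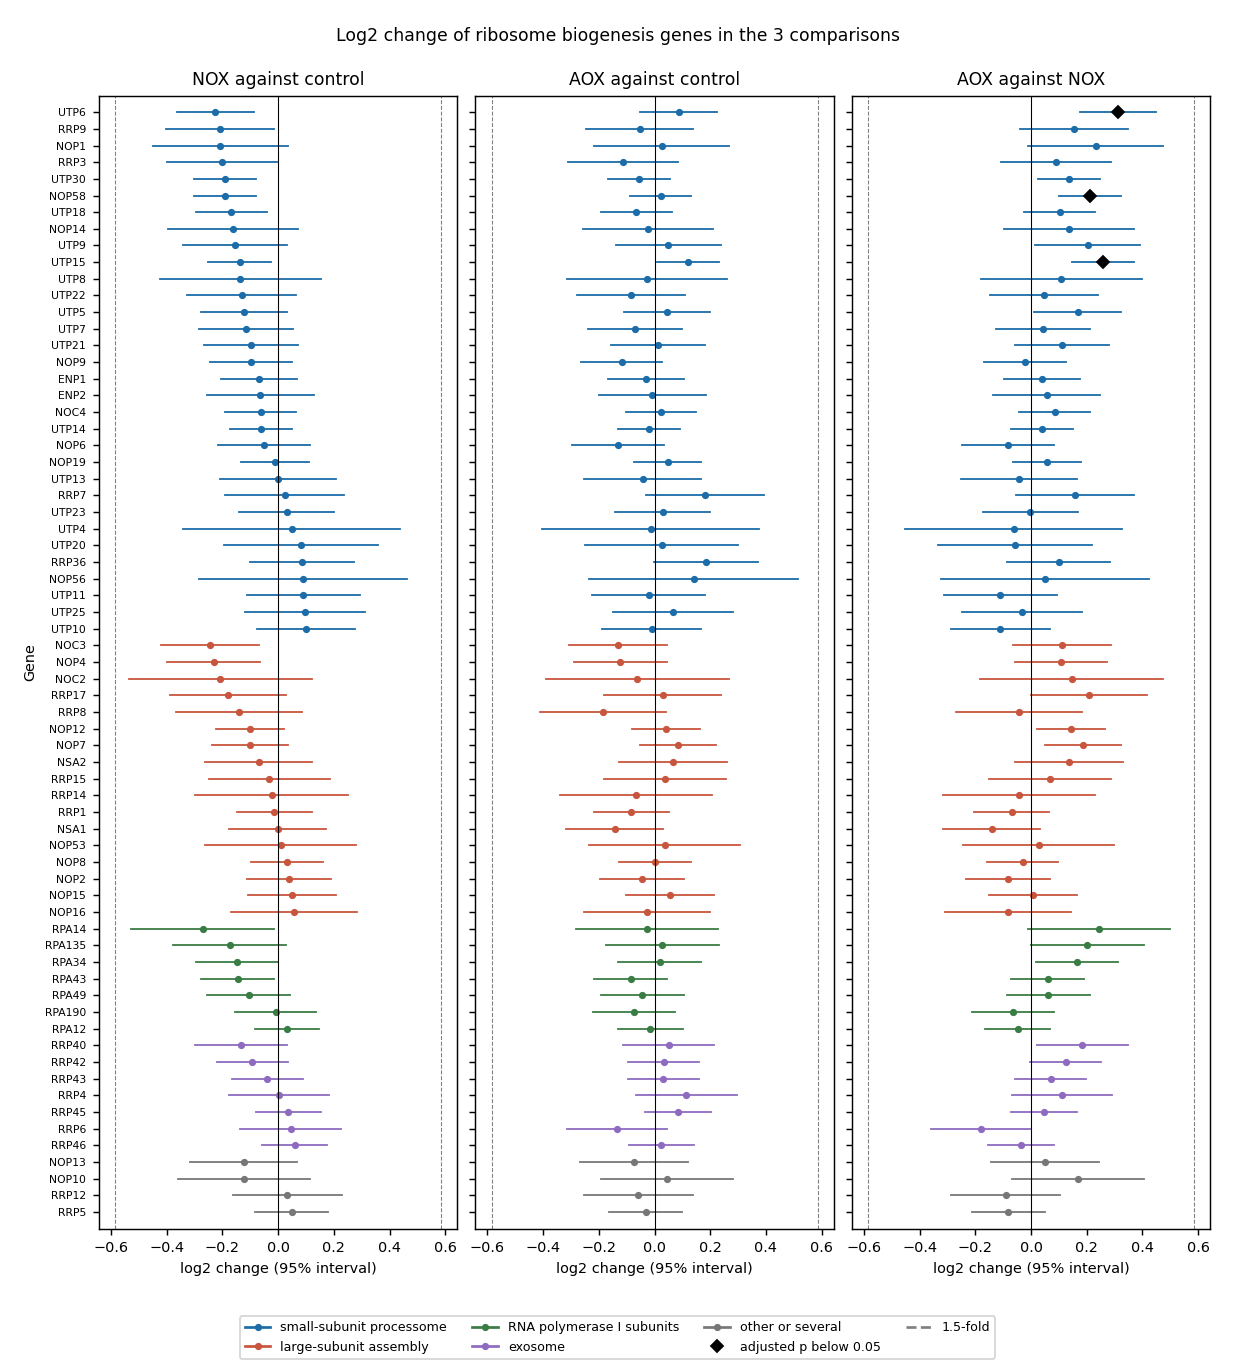
Log2 change of the 67 genes in the 3 comparisons with the unadjusted 95% interval, by role, from limma over all 6 arrays; dashed lines mark 1.5-fold and diamonds an adjusted p below 0.05. Every interval lies between the dashed lines, and the 3 diamonds, UTP6, NOP58 and UTP15, are all in AOX against NOX.

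The 3 called genes sit in the processome and had the same order of strains, with NOX lowest. UTP6 (YDR449C, chromosome IV) encodes a subunit of UtpB, a module that helps to build the processome on the nascent precursor. Its level was 9.04 and 9.06 on the control arrays, 8.86 and 8.78 on the NOX arrays, and 9.10 and 9.17 on the AOX arrays. The 3 strains did not overlap. The change was 0.31 (SE 0.06, adjusted p = 0.0272) in AOX against NOX, -0.23 (SE 0.06, adjusted p = 0.0954) in NOX against control and 0.09 (adjusted p = 0.595) in AOX against control. The call against NOX was lost under 7 of 15 alternatives, and its adjusted p ranged from 0.0213 to 0.161 over them.

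UTP15 (YMR093W, chromosome XIII) encodes a subunit of UtpA, the module known to be needed for transcription of the ribosomal DNA as well as for its processing. It measured 10.02 and 10.00 in control, 9.86 and 9.88 in NOX, and 10.12 and 10.14 in AOX. Again no 2 strains overlapped, and the arrays of each strain lay close together. AOX was above NOX by 0.26 (SE 0.05, adjusted p = 0.0264), NOX differed from control by -0.14 (adjusted p = 0.16) and AOX from control by 0.12 (adjusted p = 0.327). The adjusted p in AOX against NOX ranged from 0.017 to 0.153 over 15 alternatives, and 7 of them lost the call.

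NOP58 (YOR310C, chromosome XV) encodes a core protein of the box C/D particles, small RNA-protein complexes that guide methylation of the ribosomal RNA and include U3, the RNA around which the processome forms. It measured 11.34 on both control arrays, 11.15 on both NOX arrays, and 11.37 and 11.35 on the AOX arrays. The NOX arrays were below all the others, while control and AOX differed by 0.02 (adjusted p = 0.891). The change was 0.21 (SE 0.04, adjusted p = 0.0461) in AOX against NOX and -0.19 (SE 0.04, adjusted p = 0.0874) in NOX against control. Here 9 of 15 alternatives lost the call, with adjusted p from 0.0261 to 0.217.

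**Figure D3:**
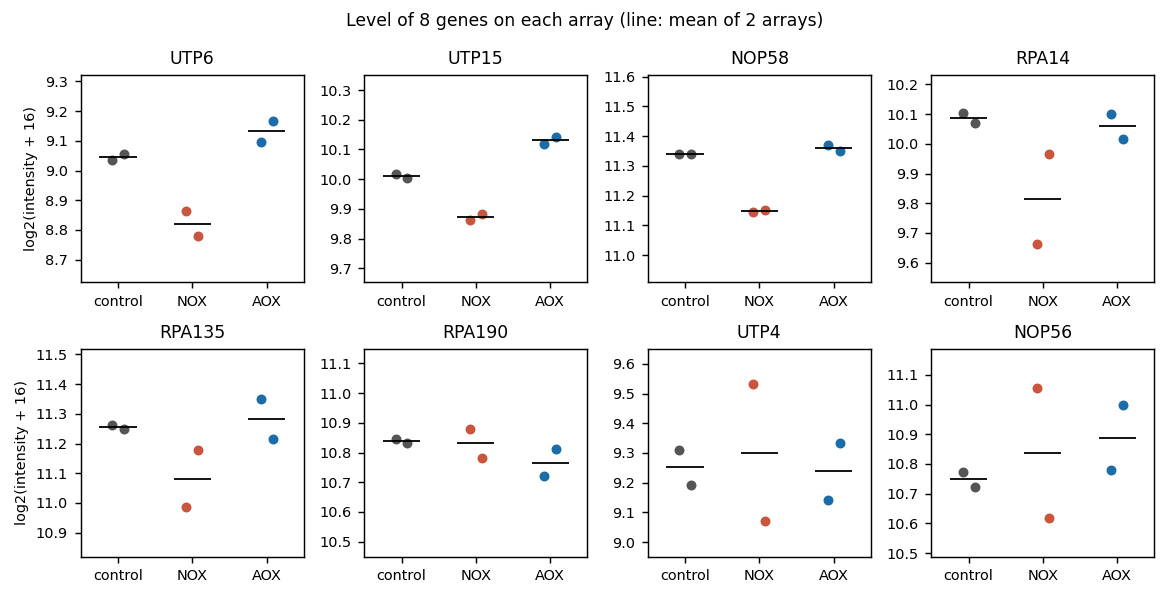
Level of 8 of the genes on each array as log2(intensity + 16), by strain, with points for arrays and lines for the mean of the 2 arrays; each panel has its own offset but the same span. UTP6, UTP15 and NOP58 are lowest in NOX with little spread, whereas the 2 NOX arrays of RPA14, UTP4 and NOP56 lie far apart.

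Among the 32 processome genes, 23 had an estimate below 0 in NOX against control, with a median of -0.083. At an unadjusted p below 0.05 there were 7 of the 32, all lower in NOX, beside 22.3% of all probe sets and 9.93% that were lower. The median was -0.0087 in AOX against control and 0.072 in AOX against NOX. The lowest estimates in NOX were those of UTP6 and of RRP9, a protein found on U3 alone among the box C/D particles. RRP9 measured 9.26 and 9.29 in control, 9.16 and 8.98 in NOX, and 9.16 and 9.29 in AOX. Its change in NOX was -0.21 (SE 0.08, adjusted p = 0.199). The highest estimates in NOX were those of UTP10, a large UtpA subunit, at 0.10 (adjusted p = 0.453), and of UTP25, a factor of early processing, at 0.10 (adjusted p = 0.552). UTP10 measured 9.81 on both control arrays, 10.01 and 9.81 in NOX, and 9.80 on both AOX arrays. The first NOX array of UTP10 stood above the other 5, which lay close together.

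In AOX against control the lowest processome estimates were those of NOP6, an RNA-binding protein of small-subunit assembly, at -0.13 (adjusted p = 0.474), and NOP9, an RNA-binding protein of pre-ribosomes, at -0.12 (adjusted p = 0.473). The highest were RRP36 at 0.19 (adjusted p = 0.366) and RRP7, a subunit of the UtpC module, at 0.18 (adjusted p = 0.439). RRP36, a factor of the early cuts, measured 7.66 and 7.58 in control, 7.79 and 7.62 in NOX, and 7.77 and 7.84 in AOX. The AOX arrays of RRP36 lay above both control arrays and overlapped with the NOX arrays. Between AOX and NOX the lowest were UTP11, another early processing factor, and UTP10, both at -0.11 (adjusted p = 0.48 and 0.421).

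Estimates varied within the modules of the processome, which were grouped here as a description after the values were seen. Of the 6 UtpA genes among the members, 4 had an estimate below 0 in NOX, and their changes ran from -0.15 to 0.10. NAN1, a further UtpA subunit outside the symbol rule, had -0.053 (adjusted p = 0.728). The 4 UtpB genes among the members ranged from -0.23 to -5e-04, and the other UtpB subunits, PWP2 and DIP2, had 0.0026 and -0.048 (adjusted p = 0.984 and 0.68). Of the UtpC members, UTP22 had -0.13 (adjusted p = 0.38) and RRP7 had 0.02 (adjusted p = 0.893). Among the proteins of the box C/D and U3 particles, NOP1, the methyltransferase, NOP58 and RRP9 had -0.21, -0.19 and -0.21 in NOX, and NOP56 had 0.09 (SE 0.15, adjusted p = 0.759). Outside the symbol rule, SNU13, another core protein, had -0.014, and IMP3 and IMP4 of U3 had 0.059 and -0.018 (adjusted p = 0.909, 0.563 and 0.866). MPP10, also of U3, had -0.31 (SE 0.16, adjusted p = 0.324). It measured 9.05 and 9.02 in control and 8.46 and 8.99 in NOX. NOP56 is the known partner of NOP58 in the particle, and it measured 10.77 and 10.72 in control, 11.06 and 10.62 in NOX, and 10.78 and 11.00 in AOX. Its NOX arrays thus lay on either side of all the others. Without NOP1, NOP56 and NOP58, the median of the processome members in NOX was -0.069.

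Of the 17 large-subunit genes, 12 had an estimate below 0 in NOX against control, with a median of -0.031. At an unadjusted p below 0.05 there were 2 (NOC3 and NOP4), beside 22.3% of all probe sets and 9.93% that were lower. The median was -0.027 in AOX against control and 0.027 in AOX against NOX. The 2 lowest in NOX were NOC3, which carries early large-subunit particles through the nucleus together with NOC2, and NOP4, an RNA-binding protein of these particles. NOC3 measured 9.09 and 9.10 in control, 8.77 and 8.93 in NOX, and 8.91 and 9.01 in AOX. Its NOX arrays lay below both control arrays, with a change of -0.24 (SE 0.07, adjusted p = 0.135). NOP4 measured 9.73 and 9.66 in control, 9.40 and 9.53 in NOX, and 9.61 and 9.53 in AOX, with a change in NOX of -0.23 (SE 0.07, adjusted p = 0.135). Both genes were also below control on both AOX arrays, by -0.13 and -0.12 (adjusted p = 0.511 and 0.515).

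NOC2, the partner of NOC3, was lower on 1 NOX array only. It measured 9.37 and 9.41 in control, 9.39 and 8.98 in NOX, and 9.27 and 9.39 in AOX, and its change in NOX was -0.21 (SE 0.13, adjusted p = 0.403). The highest large-subunit estimates in NOX were NOP16 at 0.06 (adjusted p = 0.75) and NOP15 at 0.05 (adjusted p = 0.684), both factors of early particles. In AOX against control, RRP8, a methyltransferase of the large ribosomal RNA, had -0.18 (adjusted p = 0.468) and NSA1, a factor released from maturing particles, -0.14 (adjusted p = 0.466). The highest there were NOP7, which acts in removal of an internal spacer, at 0.08 (adjusted p = 0.604) and NSA2 at 0.07 (adjusted p = 0.791). In AOX against NOX the highest were RRP17, an exonuclease, at 0.21 (adjusted p = 0.223) and NOP7 at 0.19 (adjusted p = 0.117), and the lowest were NSA1 at -0.14 (adjusted p = 0.3) and NOP16 at -0.08 (adjusted p = 0.643). The median in NOX rested on the second NOX array, since it was -0.0036 without that array and -0.096 without the first. In AOX against NOX it was -0.058 without the second NOX array. Under median scaling on the other-organism probe sets it was 0.009 in NOX, beside 0.026 over all probe sets, and -0.0066 in AOX against NOX.

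Of the 7 RNA polymerase I subunits, 6 had an estimate below 0 in NOX against control, beside 51.2% of all probe sets. For 5 both NOX arrays lay below both control arrays, beside 28.4%. The median of the 7 was -0.14, and 2 (RPA14 and RPA43) had an unadjusted p below 0.05, both lower in NOX. Over all probe sets 22.3% were at that threshold and 9.93% were lower. RPA14 (YDR156W, chromosome IV), which forms a stalk on the enzyme together with RPA43, had the lowest estimate of the 67 over both NOX arrays, a rank that rested on the first of them. It measured 10.10 and 10.07 in control, 9.66 and 9.97 in NOX, and 10.10 and 10.02 in AOX. The NOX arrays were below the other 4 but lay 0.30 apart, and the change was -0.27 (SE 0.10, adjusted p = 0.203). Without NOX replicate 1 it was -0.12, while NOC2 was then at -0.41, and without NOX replicate 2 it was -0.42. RPA43 measured 9.63 and 9.60 in control, 9.49 and 9.45 in NOX, and 9.57 and 9.49 in AOX, with a change in NOX of -0.14 (SE 0.05, adjusted p = 0.19).

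The largest subunits, RPA135 and RPA190, build the catalytic core. RPA135 measured 11.26 and 11.25 in control, 10.99 and 11.18 in NOX, and 11.35 and 11.21 in AOX, and its NOX arrays were the lowest (change -0.17, SE 0.08, adjusted p = 0.279). Without NOX replicate 1 the change was -0.077, and without NOX replicate 2 it was -0.26. RPA190 measured 10.85 and 10.83 in control, 10.88 and 10.78 in NOX, and 10.72 and 10.81 in AOX. Its NOX arrays overlapped with those of control (change -0.0088, SE 0.06, adjusted p = 0.942) and of AOX. Both AOX arrays of RPA190 lay below both control arrays (change -0.07, adjusted p = 0.679). Whether the changes of the 2 genes differ was not tested. RPA34 and RPA49 form a heterodimer that aids initiation and elongation. In NOX they had -0.15 (SE 0.06, adjusted p = 0.224) and -0.11 (SE 0.06, adjusted p = 0.359), and for both genes the NOX arrays were below the control arrays. RPA12, which takes part in cleavage of the transcript and in termination, was the steadiest of the 67 genes over the 6 arrays. It measured 9.79 and 9.75 in control, 9.80 on both NOX arrays, and 9.77 and 9.74 in AOX (change in NOX 0.03, SE 0.05, adjusted p = 0.721).

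In AOX against control the polymerase subunits had a median of -0.027 and ran from -0.085 for RPA43 (adjusted p = 0.579) to 0.028 for RPA135 (adjusted p = 0.928). Against NOX the AOX median was 0.062, and RPA14 had the highest estimate at 0.24 (SE 0.10, adjusted p = 0.237), with a range of 0.09 to 0.39 over the alternatives. RPA190 had the lowest estimate, -0.065 (adjusted p = 0.573). RPA43 and RPA190 are neighbours that are read away from each other in the R64 gene table, and their estimates in NOX were -0.14 and -0.0088. The only other pair of neighbours among the members, RRP15 of the large subunit and NOC4 of the processome, is read head on and had -0.031 and -0.062.

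The exosome, which trims the ends of ribosomal precursors and degrades their spacers, had a median change of 0.0031 in NOX against control, 0.032 in AOX against control and 0.071 in AOX against NOX. None of its 7 genes had an unadjusted p below 0.05 in NOX or AOX against control, beside 22.3% and 13.7% of all probe sets. In NOX the changes ran from -0.13 for RRP40, a cap subunit (adjusted p = 0.299), and -0.09 for RRP42, a ring subunit (adjusted p = 0.353), to 0.04 for RRP6, the nuclear exonuclease (adjusted p = 0.75), and 0.06 for RRP46, another ring subunit (adjusted p = 0.499). In AOX the cap subunit RRP4 had the highest estimate, 0.11 (adjusted p = 0.589), followed by the ring subunit RRP45 with 0.08 (adjusted p = 0.534). RRP6 measured 9.55 and 9.52 in control, 9.67 and 9.49 in NOX, and 9.38 and 9.42 in AOX. Its AOX arrays lay below all the others, by -0.13 against control (adjusted p = 0.514) and -0.18 against NOX (SE 0.07, adjusted p = 0.222). RRP40 had the highest estimate of the 7 in AOX against NOX, 0.18 (adjusted p = 0.176). It alone had an unadjusted p below 0.05 there, beside 22.8% of all probe sets and 11.5% that were higher. The other 4 members, RRP5 and RRP12 of both subunits, NOP10 of the H/ACA particles and NOP13, had NOX changes between -0.12 and 0.049.

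Read side by side, the medians in NOX against control were -0.083 for the processome, -0.031 for the large subunit and -0.14 for RNA polymerase I, beside -0.0037 over all probe sets. Between replicate arrays the median of a role varied with an SD of 0.041, 0.049 and 0.021, in the same order. Each SD was pooled over the 3 strains, and in each role the NOX arrays lay further apart than the control arrays. Under median scaling on the other-organism probe sets the medians were -0.047, 0.009 and -0.11, beside 0.026 over all probe sets. Relative to the control mean, the processome median was -0.051 on the first NOX array and -0.12 on the second. The large-subunit median was -0.0042 and -0.095, and the polymerase median -0.12 and -0.078. On the AOX arrays the medians of the 3 roles lay between -0.04 and 0.018. Differences between the roles were not tested.

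The spread between replicates was uneven over the strains. The 2 control arrays differed by a median of 0.026 over the members, the NOX arrays by 0.15 and the AOX arrays by 0.078, close to the 0.028, 0.12 and 0.068 over all probe sets. The widest gaps were 0.46 for UTP4, 0.44 for NOP56 and 0.41 for NOC2, all between the NOX arrays. UTP4, a UtpA subunit, measured 9.31 and 9.19 in control, 9.53 and 9.07 in NOX, and 9.14 and 9.33 in AOX, so that its highest and lowest level were both from NOX. Genes that were higher on the first NOX array tended to be lower on the first AOX array. The replicate difference of NOX and that of AOX had opposite signs in 49 of 67 members (73.1%) and in 70.8% of all probe sets. Across the 67 genes their correlation was -0.66, and across all 5498 probe sets it was -0.6. These are descriptions across genes measured on the same arrays, and genes are not independent replicates. Gene length went along with them in the members, with a rank correlation of 0.35 for the NOX difference and -0.35 for the AOX difference, beside 0.036 and -0.074 over all probe sets.

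**Figure D4:**
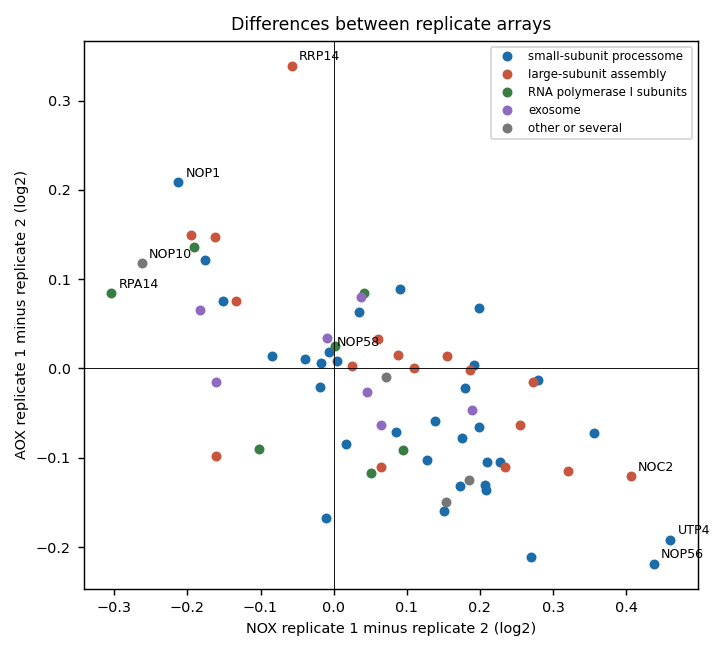
Difference between replicate arrays for the 67 genes, first minus second array, for NOX (horizontal, log2) against AOX (vertical, log2), with colours for roles. Most points lie in the upper left and lower right of the plot, with UTP4, NOP56 and NOC2 at the far right and NOP58 near 0 on both axes.

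The remaining genes of the pathway were taken from 6 lists with 123 genes, all of them measured. Of 34 other processome factors, 25 had an estimate below 0 in NOX, with a median of -0.073. In this list limma called 1 gene higher in NOX, ESF1, and 1 lower, FAF1, both known from maturation of the small-subunit RNA. ESF1 measured 9.28 and 9.31 in control, 9.62 and 9.66 in NOX, and 9.31 and 9.21 in AOX. It rose by 0.35 (SE 0.05, adjusted p = 0.0285) against control, and its change in AOX against NOX was -0.38 (SE 0.05, adjusted p = 0.0122). FAF1 measured 7.42 and 7.47 in control, 7.17 and 7.08 in NOX, and 7.41 and 7.38 in AOX. It changed by -0.32 (SE 0.05, adjusted p = 0.0351) against control, and AOX was above NOX by 0.27 (adjusted p = 0.0365). Each of these 2 calls against control was lost under 7 of 15 alternatives, leaving out either control array or either AOX array among them, with adjusted p up to 0.332 for ESF1 and 0.434 for FAF1. Their calls in AOX against NOX were lost when either control or either AOX array was left out.

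Of 49 other large-subunit factors, 39 had an estimate below 0 in NOX, with a median of -0.093, and none was called against control by limma. At an unadjusted p below 0.05 there were 8, all lower in NOX, beside 22.3% of all probe sets and 9.93% that were lower. In AOX against NOX the median of the 49 factors was 0.054. There 1 was called, HAS1, a helicase that works on both subunits, which was higher in AOX by 0.26 (SE 0.05, adjusted p = 0.0347). Beside the member NOP10, 5 genes of the H/ACA particles, which guide pseudouridine formation, and of their assembly were listed. All 5 had an estimate below 0 in NOX, with a median of -0.13, and none was called. Of them 2 had an unadjusted p below 0.05, both lower in NOX, beside 22.3% of all probe sets and 9.93% that were lower. They were SHQ1, an assembly factor, with -0.22 (adjusted p = 0.0943) and GAR1, a core protein, with -0.27 (adjusted p = 0.165). The 16 shared subunits and regulators of RNA polymerase I had a median of -0.0056 in NOX and 0.061 in AOX against NOX. In the latter, RRN11 and RRN7 were called, beside 8.38% of all probe sets and 4% that were called higher. Both encode subunits of the core factor that recruits the enzyme to the ribosomal DNA promoter. RRN6, a further subunit of it, was not called (0.15, SE 0.095, adjusted p = 0.397). RRN11 measured 7.93 and 7.89 in control, 7.68 and 7.65 in NOX, and 8.04 and 8.01 in AOX, and AOX was above NOX by 0.35 (SE 0.05, adjusted p = 0.01). RRN7 was above NOX by 0.25 (SE 0.05, adjusted p = 0.0351). The calls of HAS1, RRN11 and RRN7 were lost when either control or either AOX array was left out.

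The 11 other factors of the exosome and its helper complexes had medians of -0.0034 in NOX, -0.023 in AOX and 0.051 in AOX against NOX. None was called by limma in these comparisons. At an unadjusted p below 0.05 there were 0, 2 and 3 genes, beside 22.3%, 13.7% and 22.8% of all probe sets. Among 8 regulators of the ribosome biogenesis regulon, with a median of 0.0043 in NOX, limma called CRF1, a corepressor of ribosomal protein genes. CRF1 measured 5.41 and 5.34 in control, 6.12 and 5.98 in NOX, and 5.53 and 5.74 in AOX. Its change was 0.68 (SE 0.09, adjusted p = 0.0178) in NOX against control and -0.42 (SE 0.09, adjusted p = 0.0489) in AOX against NOX. It was not well above background on both control arrays and on 1 AOX array. With those arrays raised to the background level, NOX was at least 1.22-fold above control and at least 1.23-fold above AOX. These 2 bounds were not tested. Leaving out either control array, or the first NOX array, ended the call against control, with adjusted p up to 0.182 over 15 alternatives, and 9 of 15 ended the call against AOX. The 122 genes of cytosolic ribosomal proteins, the products that these factors assemble, had medians of -0.019 in NOX, 0.015 in AOX and 0.044 in AOX against NOX, with 1 called lower in NOX and none in the other comparisons. The called gene, RPS9A, which has a near-identical copy, changed by -0.30 (SE 0.05, adjusted p = 0.0388), and 9 of 15 alternatives lost the call. Leaving out either control array, either AOX array or the first NOX array was among them, with adjusted p up to 0.404. At an unadjusted p below 0.05 there were 3, 2 and 10 of the 122, beside 22.3%, 13.7% and 22.8% of all probe sets.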

How the data were processed

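Per the labels, biotin-labelled RNA of chemostat cells was measured on 6 Affymetrix Yeast Genome 2.0 arrays, 2 per strain, grouped by title. The authors deposited 1 summarised intensity per probe set and array on a linear scale. The program behind these intensities was not given in the sources used here. Precision is limited by the number of arrays.

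Of 10928 probe sets, 5498 matched a single S. cerevisiae gene after symbols were updated to the R64 gene table. Of the rest, 213 were control or reporter probe sets. Intensities were taken as log2(value + 16), which understates changes of dim genes. The array medians over all probe sets differed by up to 0.204, and values were quantile normalized over all probe sets. Strains were compared in limma 3.58.1 (R 4.3.3) with lmFit and eBayes, fitting 1 mean for each strain on all 6 arrays (3 residual and 2.77 prior degrees of freedom). The p-values were adjusted over the 5498 probe sets (Benjamini-Hochberg), with a threshold of 0.05. The brightest probe set would have stood for a gene, but each member had 1.

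The members, their roles and the lists were chosen with earlier results of these data known. Genes named with values were all RPA genes, all called genes, the 2 highest and 2 lowest of the processome, large-subunit and exosome genes in each comparison, and the 3 with the widest replicate gap. UTP22, NOP1, NOP14, NOC4, RRP15 and the 4 members outside the main roles were named after their values were seen. So were RPS9A, SHQ1, GAR1, NAN1, PWP2, DIP2, SNU13, IMP3, IMP4, MPP10 and RRN6. By the rule used here, replicate numbers were not taken to pair the samples. The replicate differences of the members correlated by 0.147 between control and NOX, by -0.067 between control and AOX and by -0.659 between NOX and AOX. Alternatives were 3 other scalings, pseudocounts of 1 and 64, no dim probe sets, only the arrays compared and a replicate block. Each array left out in turn and probe set means were others, which made 15 for single genes. A variance trend and a threshold of 0.01 were run for the counts of calls only. No sequences and no genome coordinates are given, since no genome of the array's build was used here.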

Additional observations from a re-analysis of the deposited data

How the results depend on the processing

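With 2 arrays per strain and 1 uneven strain, calls depended on single arrays. The number of members called stayed at 0 in AOX against control under every alternative run, and in NOX against control it was 0 under all except those without a NOX array, with a range of 0 to 12 over the arrays left out. In AOX against NOX the 3 calls became 0 under median scaling on the other-organism probe sets, with only the arrays compared, at a threshold of 0.01 and with the replicate number as a block, and they ranged from 0 to 13 over the arrays left out. With that replicate block, 0 members were called in each of the 3 comparisons, and the calls over all probe sets fell from 204 to 79 in NOX, from 197 to 124 in AOX and from 461 to 237 in AOX against NOX. Whether the numbers stand for a shared batch, or were crossed in 1 strain, cannot be told from the labels. A block with the AOX numbers crossed, chosen after seeing the data, gave 0, 0 and 2 members, and 365, 228 and 562 calls over all probe sets.

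Scaling on the other-organism probe sets moved the median of all genes in NOX to 0.0261, that of the members to -0.035 and that of RNA polymerase I to -0.108. Over the 3 scalings the median of all genes in NOX lay between -0.0198 and 0.0261, beside -0.0037 as reported. The 4 medians in NOX against control were below 0 under every alternative run except that the large subunit had 0.009 under this scaling. With arrays left out in turn, the NOX median ranged from -0.096 to -0.0467 over all members, from -0.119 to -0.0498 in the processome, from -0.096 to -0.0036 in the large subunit and from -0.16 to -0.077 in RNA polymerase I. In AOX against NOX the ranges were 0.0199 to 0.0811 over all members, 0.0294 to 0.127 in the processome, -0.0583 to 0.0617 in the large subunit and 0.0624 to 0.113 in RNA polymerase I. The causes of these shifts were not tested.

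For single genes, 3690 values were recomputed for 82 genes. Of these, 3408 either kept a call, whatever their size, or were called on neither side and stayed within 1 SE of the value reported. A further 155 were called on neither side and moved by over 1 SE, 35 gained a call and 92 lost one. None that was called on either side changed its sign, and 156 values called on neither side did.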
